A study of Mus musculus with 3 samples.

Results

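Cluster 19, called smooth muscle by its label, is 1 of 35 labels that were given to single cells of the mouse iridocorneal angle and limbus, the ring of tissue where the iris, ciliary body, cornea and outflow vessels meet. Its members are the kept cells that carry this label in the deposited tables, with each barcode matched to the UMI count matrix of its own library. They number 940 of 26008 kept cells. The series has 3 droplet libraries, of which control replicates 1 and 2 are Angpt1 flox/flox eyes and the third, Angpt1ΔNC, is Angpt1 flox/flox;Wnt1Cre+ eyes, all from mice aged 6 weeks. Every mouse thus carried the floxed Angpt1 alleles on a mixed background bred with the albino ICR stock, and the Angpt1ΔNC mice also carried Cre under Wnt1 control, which recombines in cells of neural crest descent. Eyes of 2 to 3 mice, male and female per the labels, went into each library, so the library is the replicate, and Angpt1ΔNC has a single one. Before filtering, the libraries held 8614 to 12625 called barcodes and 87485105 to 103901851 UMIs, and 6772 to 10160 cells were kept in each.

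Smooth muscle cells contract through actin and a smooth muscle myosin whose light chain is phosphorylated on demand, and they hold these proteins together with calponin, transgelin, tropomyosin and desmin. In the anterior eye such cells form the ciliary muscle and the iris sphincter, both driven by acetylcholine through muscarinic receptors, and they also ring the arteries. Much of this gene program is switched on by serum response factor with its partner myocardin at a DNA element named the CArG box. Bone morphogenetic proteins (BMPs) are secreted signals held in check by extracellular antagonists such as noggin, and the Id genes are well-known targets of BMP signaling inside the cell.

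The marker genes given with the label were present in the cells that carry it. These were Cnn1, which encodes calponin and lies at chr9:22099216-22109630 on the plus strand, Myh11, the smooth muscle myosin heavy chain at chr16:14194535-14291372 on the minus strand, Actg2, an actin of visceral smooth muscle at chr6:83512905-83536265 on the minus strand, and Nog, which encodes noggin and lies at chr11:89300638-89302332 on the minus strand (GRCm38, GENCODE M21). A UMI of Cnn1 was found in 77.0, 82.4 and 79.6% of the cluster 19 cells of the first control, the second control and Angpt1ΔNC. Here and below, 3 values stand in that order. For Myh11 the shares were 95.1, 97.2 and 94.4%. Actg2 was less widespread, with 56.8, 58.7 and 50%. Nog was found in 92.2, 93.8 and 85.2% of the cells. Epithelial cells of the same libraries, which should lack the muscle genes, gave the background of free RNA, and there the shares ran from 0.0988% for Actg2 in control replicate 2 to 2.12% for Myh11 in control replicate 1, at a median depth of 15135 to 17717 UMIs. Nog stood at 2.63 to 7.31% in these epithelial cells. The cluster 19 cells themselves had medians of 5840, 6315 and 6306.5 UMIs, so their higher shares were reached at the lower depth, and a median of 4.13, 5.14 and 5.85% of their UMIs were mitochondrial. With each cell thinned to 2000 UMIs, Nog was found in 73.2, 72.5 and 55.8% of the cells and Cnn1 in 52.3, 50.2 and 50%, with 3, 1 and 2 shallower cells left out.

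All 21 genes of a wider contractile list had UMIs in cluster 19 of every library, with a summed level of 570, 536 and 545 UMIs per 10,000 UMIs of the cells. In 19 of the 21 genes cluster 19 had the highest or second highest mean level of all 35 labels in every library, and in 10 it was first in each. The summed level was 469, 511 and 318 in cluster 21, called vascular smooth muscle, 103, 84.3 and 105 in cluster 20, called pericytes, and 122, 90.4 and 77.1 in cluster 17, called uveal stroma. Of 12 pericyte genes, 10, 11 and 6 had UMIs in cluster 19 of the 3 libraries, with a summed level of 12.5, 11.9 and 4.40 UMIs per 10,000 against 126, 138 and 116 in cluster 20. No UMI of Higd1b was found in any library of cluster 19, and the mean level of Notch3, a receptor of mural cells, was 0.083, 0.054 and 0. Other pericyte genes were present: Rgs5 was found in 55.3, 55.5 and 20.4% of the cells, Cspg4 in 43.9, 48.7 and 53.7%, Mcam in 38.8, 48.1 and 33.3% and Cox4i2 in 42.1, 35.9 and 29.6%. No UMI of Tbx18 or Nkx2-3, regulators of other smooth muscle lineages, was found either.

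**Figure D1:**
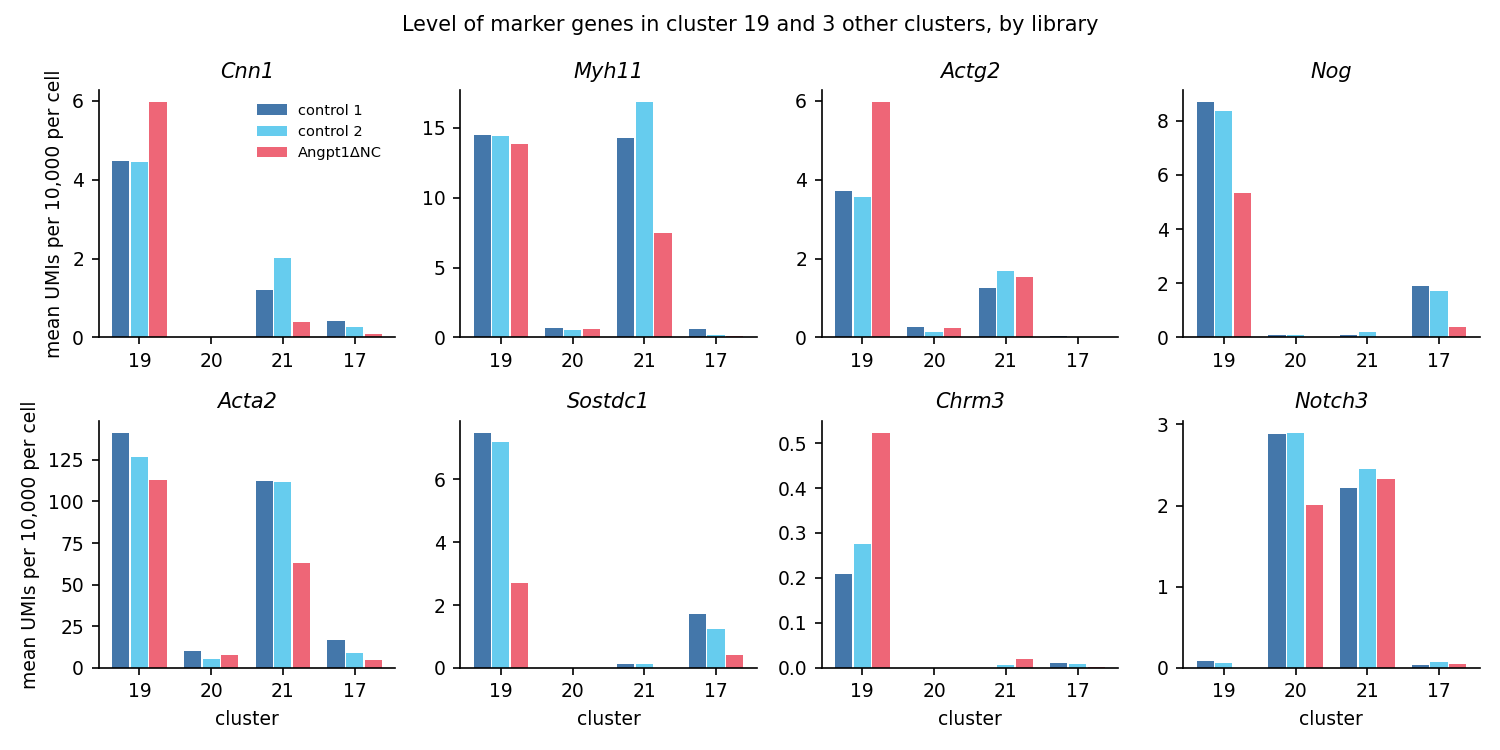
Bars give the mean over cells of UMIs per 10,000 for Cnn1, Myh11, Actg2, Nog, Acta2, Sostdc1, Chrm3 and Notch3 in clusters 19, 20, 21 and 17, with 1 bar per library and no error bars. Cnn1, Actg2, Nog and Chrm3 were highest in cluster 19 of these 4 clusters in all 3 libraries, while Myh11 in cluster 21 of control replicate 2 reached 16.8 against 14.4 in cluster 19.

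Promoter sequence was read for the genes that lead the cluster, because the CArG box is the element through which serum response factor reads muscle genes and the leading genes of cluster 19 are largely muscle genes. In the 250 bases before the RefSeq start sites (build GRCm38.p6), an exact CArG box was present in 4 of the 23 windows held for the 25 leading genes, or 4 of 18 genes (22.2%). Over all genes it was present in 482 of 32851 windows (1.47%), or 439 of 27025 genes (1.62%). A site that matches the pattern of the box on a strand also matches it on the other, though its letters may differ. The matches were in Fbxl22, Myl9, Fhl1 and Filip1l, and the contractile list added Vcl and Myl6. The 4 stretches that overlap no annotated exon are shown 5′ to 3′ on the gene's strand, the plus strand in each case, with the box in capitals.
Myl9, a regulatory light chain of smooth muscle myosin, chr2:156775253-156775362, box at bases -161 to -152: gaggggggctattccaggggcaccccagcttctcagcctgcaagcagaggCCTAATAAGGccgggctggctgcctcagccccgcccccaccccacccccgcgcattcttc
Fhl1, a LIM domain protein of muscle, chrX:56779531-56779640, box at bases -102 to -93: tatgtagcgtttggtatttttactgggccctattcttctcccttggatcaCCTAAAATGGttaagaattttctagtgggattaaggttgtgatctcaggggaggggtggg
Filip1l, a filamin A interacting protein, chr16:57549130-57549239, box at bases -62 to -53: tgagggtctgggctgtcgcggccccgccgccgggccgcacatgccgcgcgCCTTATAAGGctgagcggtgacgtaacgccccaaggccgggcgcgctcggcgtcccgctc
Vcl, vinculin, which links actin to adhesion sites, chr14:20929148-20929230, box at bases -227 to -218: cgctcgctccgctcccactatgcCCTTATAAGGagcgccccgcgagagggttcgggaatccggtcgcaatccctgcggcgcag
A match is a string of letters and was not tested for binding. Promoter windows of Cnn1, Acta2 and the other leading genes matched in the table held no exact box in these 250 bases, and no window was used for Myh11, Actg2, Nog, Tagln, Sh3bgr, Sostdc1 and Myocd.

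The 25 genes with the largest ratio of level in cluster 19 to that in all other kept cells, taken as the smallest ratio over the 3 libraries, were Cnn1, Actg2, Tagln, Myh11, Acta2, Sh3bgr, Nog, Lmod1, Chodl, Mylk, Myl9, Hspb6, Tnnt1, Fbxl22, Tpm2, Sostdc1, Des, Fhl1, Jph2, Ltbp1, Kcnma1, Gnai1, Myocd, Filip1l and Pcdh7. These ratios ran from 26.3 for Cnn1 down to 7.85 for Pcdh7. They describe the cluster and are not tested, since the labels were made from the expression of these cells. Acta2, the smooth muscle alpha actin, was at 141, 127 and 113 UMIs per 10,000 and was found in all 940 cells. Myocd, which encodes myocardin, was at 0.899, 1.03 and 1.61, against 0.332, 0.496 and 0.399 in cluster 21 and at most 0.0421 in cluster 20. Beside these muscle genes stood 2 secreted antagonists, Nog and Sostdc1, the latter an inhibitor of BMP and Wnt signals. Other labels held them too: cluster 19 had 51.8, 52.7 and 16.0% of all Nog UMIs in kept cells. For Sostdc1 the shares were 28.9, 48.2 and 10.6%.

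Against the neighboring mural clusters 20 and 21 the antagonists led. Nog was at 8.68, 8.38 and 5.34 UMIs per 10,000 in cluster 19 and at 0.0870, 0.113 and 0.0223 in clusters 20 and 21 together. Sostdc1 was at 7.49, 7.20 and 2.69 against 0.0368, 0.0381 and 0. The next genes were Gpr137b, Chodl, Ncam1, Dner, Tnnt1, Emb, Itga8, Cavin2, Ctnnal1 and Igfbp6. Ncam1 encodes a neural cell adhesion molecule and Itga8 an integrin subunit of muscle and mesangium. Among the genes lowest in cluster 19 relative to clusters 20 and 21 were Cxcl1, Procr, Ebf1, Il6, Gja4, Kcnj8, Ndufa4l2, Adamts4, Apold1, Stc1 and Spp1. Cxcl1, a neutrophil chemokine, was at 0.253, 0.263 and 0.167 in cluster 19 against 73.7, 75.7 and 61.0. Kcnj8 and Ndufa4l2 are pericyte genes and Ebf1 is a transcription factor of pericytes. Relative to cluster 17, Actg2, Myh11, Pdlim3, Des, Fibin, Fbxl22, Sh3bgr, Tinagl1, Art3, Sparcl1, Hspb6 and Cnn1 were highest. The inflammatory genes Ptges, Csf3, Tnfaip6, Il11 and Ccl2, the interferon-induced genes Isg15, Ifit1 and Iigp1, and Ptn, Procr, Medag and Cxcl12 were lowest.

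Genes of excitation and calcium handling came next. Chrm3, the muscarinic receptor of ciliary muscle and iris sphincter, was found in 11.6, 15.2 and 24.1% of the cells, at mean levels of 0.209, 0.276 and 0.523. In cluster 20 no UMI of Chrm3 was found in 461, 512 and 222 cells, and in cluster 21 the level was at most 0.02. Chrm3 was not confined to cluster 19, which held 32.4, 43.2 and 14.0% of its UMIs over all kept cells. The lymphatic endothelium of control replicate 2, at 0.735, was 1 cell. Oxtr, the oxytocin receptor, was found in 9, 9 and 3 cells of cluster 19 and in none of clusters 20 and 21. Kcnma1, the large-conductance calcium-activated potassium channel, was at 1.25, 1.24 and 1.24, against 0.609, 0.694 and 0.162 in cluster 21. Casq2, a calcium store protein best known from heart, was at 0.625, 0.551 and 0.727 against at most 0.139 in cluster 21. Receptors that vascular muscle uses were low here: P2rx1, the ATP-gated channel, was at 0.0035, 0 and 0, against 0.99, 1.09 and 0.49 in cluster 21, and Ednra, the endothelin receptor, was at 0.0587, 0.0689 and 0, against 3.51, 4.08 and 4.07 in cluster 20. Ryr3, a calcium release channel, was at 0.128, 0.099 and 0.087 and had no UMI in clusters 20 and 21. Atp2a2, the calcium pump of the sarcoplasmic reticulum, was at 7.84, 7.63 and 6.79 against 4.11, 4.08 and 2.42 in cluster 21. Its inhibitor Pln, phospholamban, was at 0.758, 0.693 and 0.655. On the side of relaxation, Pde5a, which breaks down cyclic GMP, was at 3.11, 2.81 and 1.74 and above clusters 17, 20 and 21 in every library, while Gucy1a1, a subunit of the enzyme that makes it, was at 0.757, 0.747 and 0.231 and below clusters 20 and 21.

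Secreted factors and matrix genes completed the description. Bdnf, brain-derived neurotrophic factor, was at 10.4, 9.78 and 5.36 UMIs per 10,000, above clusters 20 and 21 in both controls, whereas cluster 20 had 5.45 in Angpt1ΔNC. Gdnf, a neurotrophic factor of the glial cell line family, was at 1.13, 1.22 and 0.991, against at most 0.133 in clusters 20 and 21. Pdgfa, a growth factor for mesenchymal cells, was at 1.64, 1.60 and 1.31, well under the 11.2 to 14.9 of cluster 21. Among the BMP genes, the target Id1 was at 12.7, 12.9 and 6.70 against 5.92, 8.61 and 4.90 in cluster 21, and the receptor Bmpr1a at 1.53, 1.45 and 1.35. The more abundant target Id3 went the other way and was lower than in cluster 21 in every library, with values given below. Nid1, the basement membrane protein nidogen, was at 3.68, 4.96 and 2.40 against at most 0.791 in clusters 20 and 21. Dmd, dystrophin, which ties the muscle cytoskeleton to that membrane, was at 1.74, 1.78 and 1.91 against at most 1.03 in the mural clusters. Mgp, a calcification inhibitor, was low in cluster 19, at 3.48, 3.75 and 4.79, against 79.4 to 107 in cluster 20 and 35.5 to 73.2 in cluster 21.

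Transcription factors of the anterior segment mesenchyme were present as well. Foxc1 was at 1.26, 1.40 and 1.34 UMIs per 10,000 and Tfap2b at 1.57, 1.65 and 1.21. Lmx1b, a homeobox factor of the anterior segment, was at 0.675, 0.665 and 0.794, against at most 0.127 in any library of clusters 20 and 21. Foxf2 was at 0.533, 0.652 and 0.508 against at most 0.0349 in cluster 21. The neuroectoderm factor Pax6 was found in 3, 1 and 2 cells of the cluster.

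Cells labelled 19 made up a smaller share of the Angpt1ΔNC library than of either control. The share was 387 of 9076 cells in control replicate 1 (4.26%, exact 95% interval 3.86 to 4.70), 499 of 10160 in control replicate 2 (4.91%, 4.50 to 5.35) and 54 of 6772 in Angpt1ΔNC (0.797%, 0.60 to 1.04). The controls differed from each other by 1.15 times, and their mean was 5.75 times the Angpt1ΔNC share. Of all 35 labels this was the lowest ratio of Angpt1ΔNC to control mean, 0.174, followed by 0.222 for cluster 1, 0.351 and 0.365 for the stromal labels TM_7 and TM_8, and 0.393 for Schlemm's canal, while the mural clusters 21 and 20 stood at 0.539 and 0.648. The intervals cover counting error only, and with 1 Angpt1ΔNC library the difference between genotypes has no replicate test. Over the stromal and mural cells alone the shares were 8.40, 8.91 and 1.45%, a ratio of 0.168. UMIs of the marker genes over all kept cells were lower as well: Cnn1 was at 18.6, 23.4 and 5.08 per 1000000 UMIs, Myh11 at 90.8, 87.2 and 24.2, Actg2 at 16.0, 18.9 and 5.75 and Nog at 47.8, 62.0 and 17.6. These sums also count other labels. Cluster 19 held 81.2, 80.8 and 69.2% of the Cnn1 UMIs and 80.2, 83.9 and 67.0% of those of Actg2. For Myh11 this was 52.3, 69.9 and 33.0% and for Nog 51.8, 52.7 and 16.0%. In such sums fewer cells of a type and less RNA per cell cannot be told apart.

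**Figure D2:**
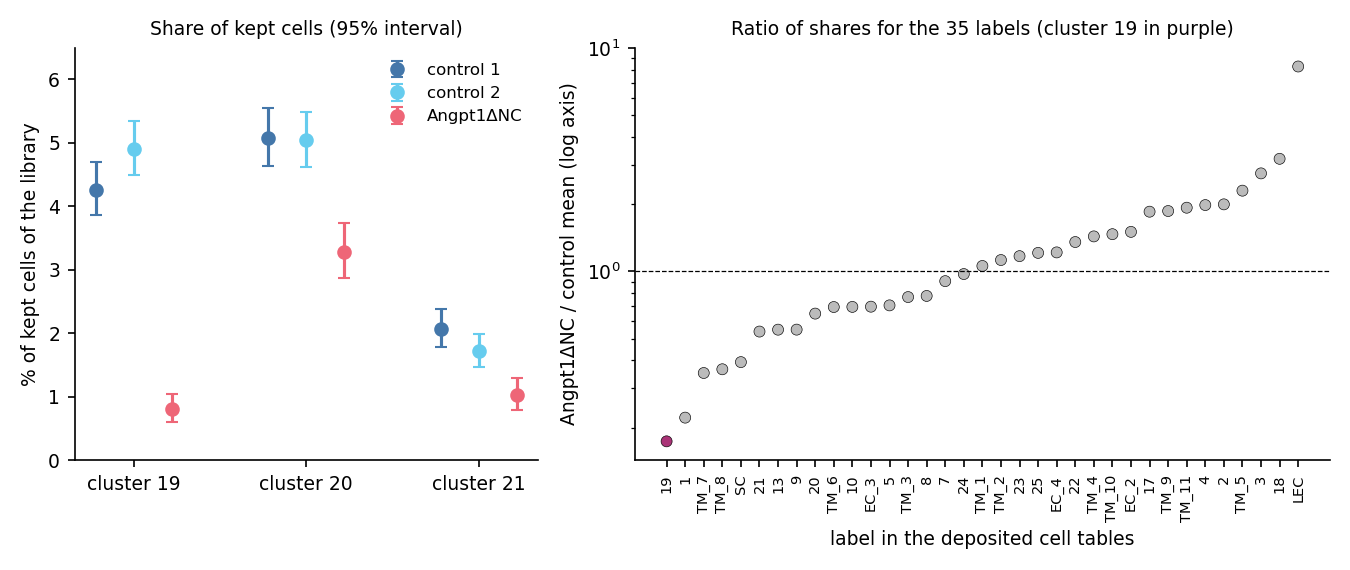
Share of kept cells labelled 19 in each library with exact 95% intervals, and the Angpt1ΔNC share over the control mean for each of the 35 labels on a log axis. The shares were 4.26, 4.91 and 0.797%, and cluster 19 had the lowest of the ratios at 0.174.

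Quality filtering removed unlike shares of muscle-marked barcodes from the libraries. Barcodes with a UMI of each of Cnn1, Myh11 and Actg2 numbered 221, 310 and 32 among kept cells (2.43, 3.05 and 0.473%), a ratio of 0.172, and 297, 379 and 82 among all called barcodes (2.64, 3.00 and 0.952%), a ratio of 0.338. Of the 82 in Angpt1ΔNC, 43 (52.4%) were over 10% mitochondrial UMIs and so were not kept, against 26 of 297 (8.75%) in control replicate 1 and 3 of 379 (0.792%) in control replicate 2. Over all called barcodes, 6.63, 6.54 and 12.6% were over that limit. The removed barcodes carried another set of genes from the kept ones. Nog was found in 6 of the 43 and Pax6 in 39, and in control replicate 1 Nog was found in 3 of the 26 and Pax6 in 24. Ckm, the muscle creatine kinase, was found in 29 of the 43 and 20 of the 26. Among the kept barcodes with all of Cnn1, Myh11 and Actg2, Nog was found in 176 of 221, 261 of 310 and 23 of 32 and Pax6 in 3, 2 and 2. With Nog required as well, the shares of all called barcodes were 1.89, 2.50 and 0.406%, a ratio of 0.185, and the shares of kept cells 1.94, 2.57 and 0.340%, a ratio of 0.151.

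**Figure D3:**
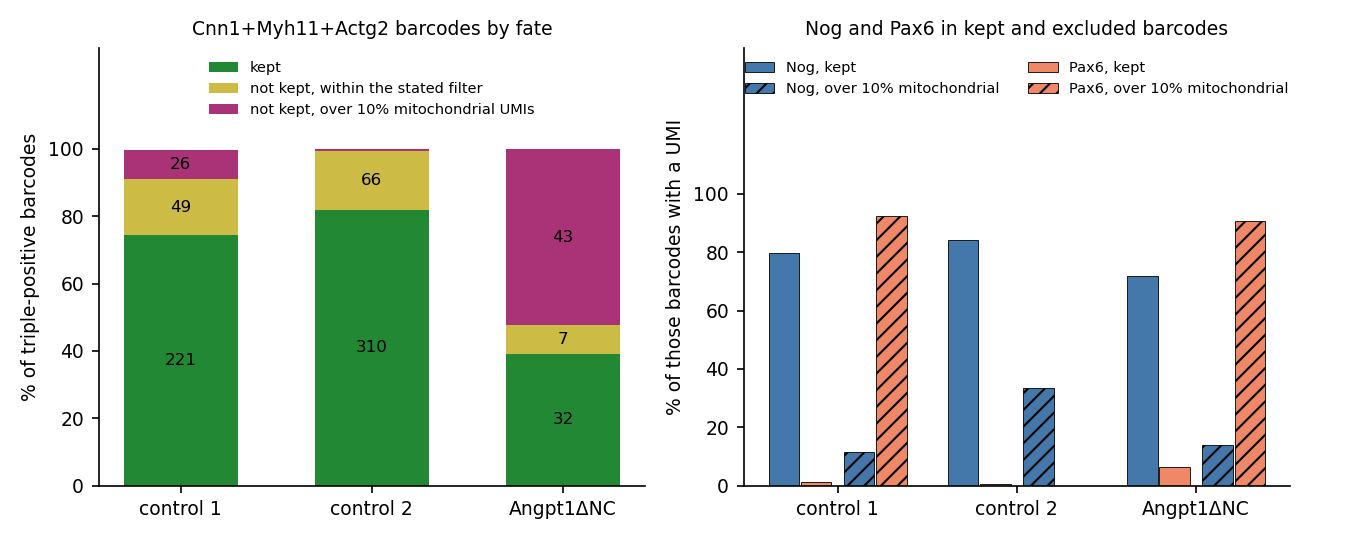
The left panel splits the called barcodes with a UMI of each of Cnn1, Myh11 and Actg2 in every library into kept, not kept within the stated filter and not kept over 10% mitochondrial UMIs, as a percentage with the count in each segment, and the right panel gives the percentage of the kept and of the over-limit ones with a UMI of Nog or Pax6. Of the 82 such barcodes in Angpt1ΔNC, 43 were over the limit, and 39 of these held Pax6. The 1 barcode of control replicate 1 under the UMI or gene limit is not drawn.

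The sex of the cells moved with genotype in this cluster. A cell was typed as male where it had a UMI of Ddx3y, Eif2s3y, Kdm5d or Uty and none of Xist, and as female in the opposite case. Although the labels give pools of both sexes, 6325 kept cells of control replicate 1 were typed male and 0 female, and in control replicate 2 these were 7326 and 1. In Angpt1ΔNC 1990 kept cells were typed male and 3861 female. Within cluster 19 of Angpt1ΔNC 51 of 54 cells were typed female and 2 male, so 3.77% of the typed cells were male (0.460 to 13.0), against 21.3% in cluster 17, 39.0% in cluster 20 and 64.9% in cluster 21 of the same library. Cluster 19 thus made up 0.101% of the male-typed cells (0.0122 to 0.363) and 1.32% of the female-typed cells (0.985 to 1.73) of Angpt1ΔNC, against 3.81 and 4.93% of the male-typed cells of the controls. All of these shares in Angpt1ΔNC were below those of the controls, and sex and genotype cannot be told apart in cluster 19.

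Genes were compared between genotypes with the UMIs of cluster 19 summed per library, which came to 2356393, 3227276 and 368018. The targeted gene Angpt1 (chr15:42424723-42676977), a ligand of the endothelial receptor TEK, had 107, 144 and 0 UMIs. Against the limit that 0 counts allow, 3 UMIs in the Angpt1ΔNC sum, it was at least 5.52-fold lower. Of 10349 genes tested with edgeR's quasi-likelihood test, 100 (0.966%) passed a Benjamini-Hochberg adjusted p of 0.05. Of these, 51 (0.493%) were higher and 49 (0.473%) lower in Angpt1ΔNC. With 1 residual degree of freedom, the single Angpt1ΔNC library is taken to vary as the controls do. To this, edgeR adds a spread shared over genes, weighted by prior degrees of freedom that it estimates in each fit. These were 10.3 in the main fit and 48.2 or infinite in the fits given next. With the cells in the fit this weight changed, and so did the number called. It was 320 without the 8 cells of subgroup 3 described below, all 100 genes among them, 372 without the tenth of each library's cells highest in stroma genes, and 58 without cells holding UMIs of other cell types, where Angpt1ΔNC has 4 cells. The cause was not tested.

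Within the cells that carried the label, 1 of the 21 contractile genes tested passed the test of genotype as higher and none passed as lower, where 0.493 and 0.473% of all genes tested did. At an unadjusted p under 0.05 were 8 of the 21, against 1446 of all 10349. The list had a median log2 difference of 0.13 against -0.05 over all genes tested. That gene was Actg2, at 420, 394 and 696 counts per 1000000 UMIs (CPM; log2 difference 0.81 ± 0.14 SE, adjusted p = 0.0207), with the Angpt1ΔNC library above both controls. Of its Angpt1ΔNC UMIs, 59.4% lay in 5 cells, against 18 and 11.5% in the controls. Cnn1 was at 494, 471 and 636 CPM (0.44 ± 0.14, adjusted p = 0.206) and Myh11 at 1551, 1518 and 1443 (-0.05 ± 0.13, adjusted p = 0.908). Acta2, Tagln and Mylk had log2 differences of -0.18, -0.10 and -0.04. None of the 10 muscle regulators, 15 contractile agonist receptors, 24 ion channels and calcium handling genes or 12 relaxation signaling genes tested passed, with medians of 0.02, -0.02, -0.13 and -0.41. The receptor list held 1 tested gene at 0 in Angpt1ΔNC, and with it at its bound the median was 0.34.

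Id1, Id3, Sostdc1 and Bdnf fell in Angpt1ΔNC. Of 22 BMP pathway genes tested 2 passed as lower and none as higher, where 0.473 and 0.493% of all genes tested did. The list had a median of -0.40, or -0.23 with the 2 genes at 0 in Angpt1ΔNC set to their bound. Over all genes tested the median was -0.05, or 0.01 with bounds. Id3 (chr4:136143497-136145755) was at 7262, 6897 and 3924 CPM (-0.81 ± 0.13, adjusted p = 0.0118) and Id1 at 1263, 1312 and 655 (-0.94 ± 0.15, adjusted p = 0.0105). Both controls lay above the Angpt1ΔNC library for both genes. Id4, at 401, 408 and 226, had a log2 difference of -0.80 with an adjusted p of 0.0633. Nog itself was at 808, 813 and 511 (-0.63 ± 0.15, adjusted p = 0.0903) and so did not pass. It passed in 5 of 10 alternatives, with adjusted p over all of them from 1.43e-07 in male-typed cells, of which Angpt1ΔNC has 2, to 0.729. The 5 were edgeR fits with prior degrees of freedom of 48.2 to infinite, against 10.3 in the main fit. Sostdc1 (chr12:36314139-36318452) fell from 710 and 737 to 293 (-1.26 ± 0.17, adjusted p = 0.00419). Of the secreted growth factors, Bdnf, brain-derived neurotrophic factor, was at 1038, 1024 and 543 (-0.88 ± 0.15, adjusted p = 0.0157).

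Dcn, Fn1, Eln, Itga5 and Myoc rose in Angpt1ΔNC, and a large part of their UMIs there lay in few cells. Dcn, the small matrix proteoglycan decorin (chr10:97479609-97518143), was at 406, 510 and 2003 CPM (2.16 ± 0.15, adjusted p = 4.40e-05). Of its 737 UMIs in Angpt1ΔNC 67.6% lay in 5 cells, against 22.2 and 20.6% in the controls, though 5 cells are a larger part of 54 than of 387 or 499. The median cell was at 0, 1.42 and 2.09 UMIs per 10,000. Of 23 interstitial matrix genes tested 3 rose, Dcn, Fn1 and Eln, and none fell, where 0.493 and 0.473% of all genes tested did. The list had a median of 0.43, against -0.05 over all genes tested. Fn1, fibronectin, was at 31.8, 39.7 and 133 (1.92 ± 0.27, adjusted p = 0.00653) and Eln, elastin, at 82.8, 73.1 and 190 (1.33 ± 0.21, adjusted p = 0.0103). Of the Fn1 and Eln UMIs in Angpt1ΔNC, 57.1 and 51.4% lay in 5 cells. Itga5, a subunit of the fibronectin receptor, was at 73.0, 70.0 and 174 (1.32 ± 0.21, adjusted p = 0.0105) and was the 1 gene that passed of 26 for basement membrane and muscle adhesion. Myoc, myocilin of the trabecular meshwork, had 7, 12 and 43 UMIs (5.12 ± 0.38, adjusted p = 5.90e-05), of which 97.7% in Angpt1ΔNC lay in 5 cells. Apoe, Cxcl10 and Ptgds rose too, and 65.3, 100 and 88.9% of their Angpt1ΔNC UMIs lay in 5 cells. The summed level of the stroma list, of which 6, 7 and 4 of 7 genes were detected, was 5.39, 6.79 and 22.9 UMIs per 10,000. Of its 4 genes tested Dcn was the 1 that passed, with a median of 1.64. Without the tenth of each library's cells highest in that list, of which Dcn is a member, the difference of Dcn was 1.80 and that of Cxcl10 turned to -0.65. Without any cell that held UMIs of other cell types, which left 44, 49 and 4 cells, Apoe, Cxcl10 and Ptgds turned lower, at -1.52, -6.39 and -6.80. The 4 Angpt1ΔNC cells hold 16716 UMIs in all, so genes at these levels are near the floor there.

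Rgs5 (chr1:169655501-169695813), a regulator of G protein signaling that marks pericytes, fell as well. It was at 644, 637 and 62.5 CPM (-3.32 ± 0.22, adjusted p = 3.39e-05). It had UMIs in 214 of 387, 277 of 499 and 11 of 54 cells (55.3, 55.5 and 20.4%), and in 40.4, 39.4 and 1.92% of cells thinned to 2000 UMIs. Rgs4, a relative of Rgs5, was at 225, 173 and 38.0 (-2.34 ± 0.34, adjusted p = 0.00790). These were the 2 of 8 pericyte genes tested that passed, both lower, where 0.473% of all genes tested passed as lower. The list had a median of -1.46, or -0.18 with the 2 genes at 0 in Angpt1ΔNC set to their bound. Over all genes tested the median was -0.05, or 0.01 with bounds. Higd1b was at 0 throughout, while the summed pericyte list was at 12.5, 11.9 and 4.40 UMIs per 10,000. Rgs5 and Rgs4 count in that sum, with 1518, 2055 and 23 UMIs and with 530, 559 and 14 UMIs. In cells thinned to 2000 UMIs, Cspg4 was found in 18.5, 20.5 and 23.1% and Pdgfrb in 6.51, 6.83 and 7.69%. Mcam was found there in 14.1, 19.9 and 11.5% and Cox4i2 in 18.2, 15.1 and 11.5%. The lower sum thus does not show a fall across the list.

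**Figure D4:**
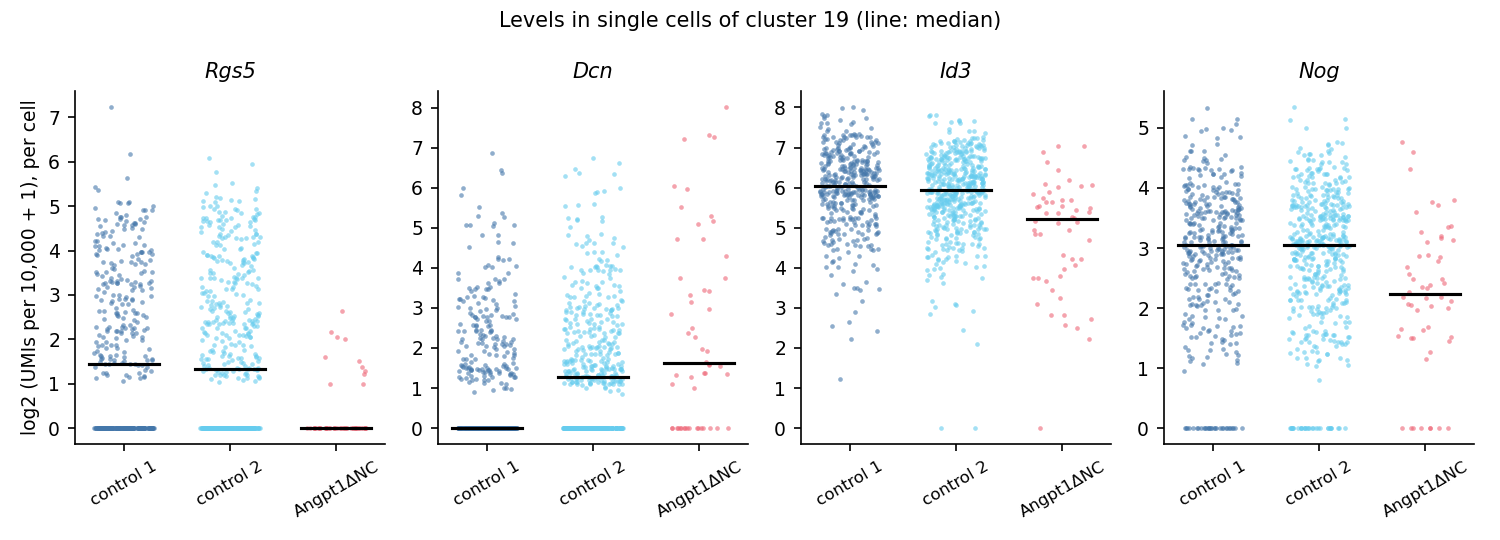
Each point is a cluster 19 cell, by library, with the log2 of its UMIs per 10,000 plus 1 on the vertical axis for Rgs5, Dcn, Id3 and Nog, and the line marks the median. Rgs5 was found in 11 of 54 Angpt1ΔNC cells against 214 of 387 and 277 of 499 in the controls, and 5 Angpt1ΔNC cells held 67.6% of its Dcn UMIs.

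The remaining genes with the smallest adjusted p were of other kinds. Higher in Angpt1ΔNC were Rps18 and Rpl29, which encode ribosomal proteins, Mat2a, which makes the methyl donor S-adenosylmethionine, the X-linked helicase Ddx3x, and AC160336.1, with log2 differences of 1.38, 1.82, 1.14, 1.17 and 1.67. Lower were the immediate early genes Fos, Junb, Ier3 and Cyr61 (-1.45, -1.48, -1.66 and -1.92), the transcription factor Cebpd (-1.48), Rbp4, the carrier of retinol (-3.49), and the IGF binding protein Igfbp4 (-1.23). Of 12 dissociation stress genes 3 passed as lower, Fos, Junb and Ier2, where 0.473% of all genes tested did. The list summed to 195, 171 and 123 UMIs per 10,000. Il11ra1 was at 22.5, 26.6 and 261 CPM and Gm13305, a gene of the same family, at 222, 208 and 19. These lie near each other at chr4:41699989-41769474 and chr4:42158842-42168603, reads can be split between copies, and neither level is certain. The same holds for Gm10260, a gene of 213, 307 and 2.72 CPM, and the ribosomal protein genes, which have many near-identical copies. Xist had 1, 0 and 431 UMIs and the Y-linked Ddx3y 228, 400 and 5, as the typing of single cells gives.

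**Figure D5:**
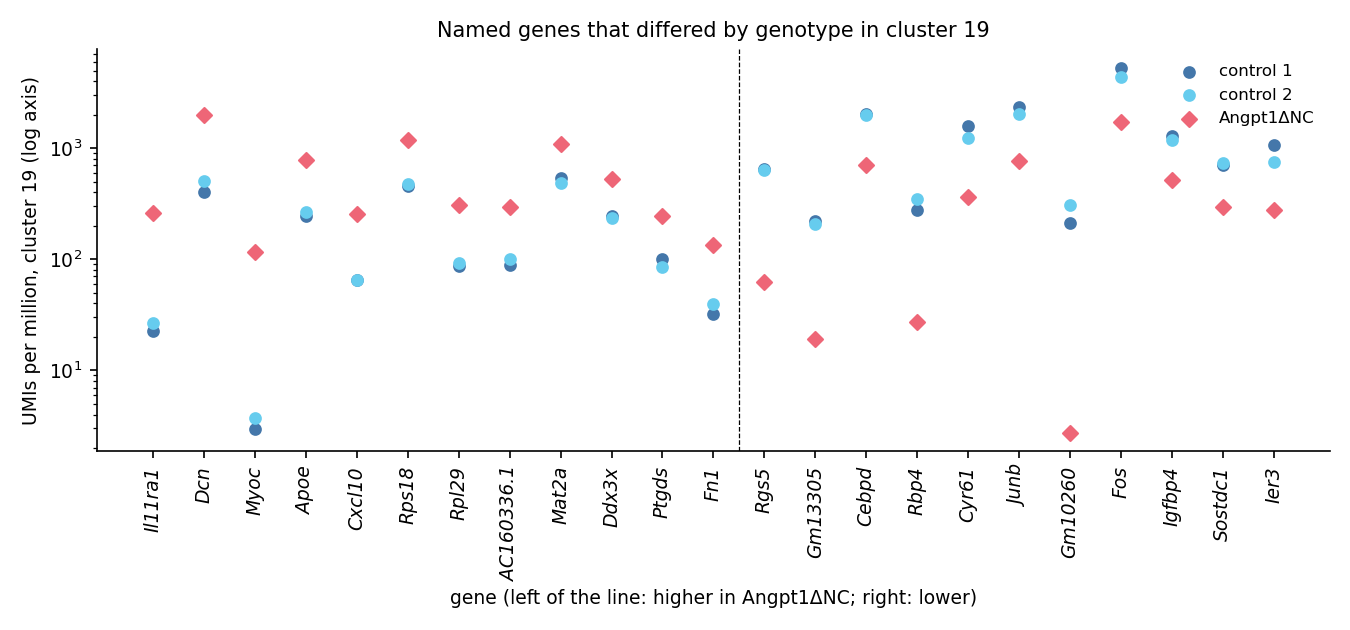
Each point is the CPM of a named gene in the summed cluster 19 cells of a library, on a log axis, with genes called higher in Angpt1ΔNC left of the dashed line and genes called lower right of it. The Angpt1ΔNC library lay above both controls on the left, such as Dcn at 2003 against 406 and 510, and below both on the right, such as Rgs5 at 62.5 against 644 and 637.

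Whether these differences were larger or smaller than in the mural clusters was tested with a contrast of the genotype difference in cluster 19 against the mean of those in clusters 20 and 21 of the same libraries. Of 9288 genes tested 95 (1.02%) passed, with 2 residual degrees of freedom. Rgs5 differed by -3.99 on the log2 scale (adjusted p = 8.46e-10): its level was 82.1, 92.3 and 75.1 UMIs per 10,000 in cluster 20 and 29.8, 24.1 and 64.1 in cluster 21. Angpt1ΔNC thus lay below both controls in cluster 20 and above both in cluster 21. Id3 differed by -0.98 (adjusted p = 0.000127), with levels of 36.3, 33.0 and 51.7 in cluster 20, 97.9, 93.0 and 78.7 in cluster 21 and 75.5, 68.7 and 39.1 in cluster 19. Bdnf differed by -0.95 (adjusted p = 0.00523) and Dcn by 2.97 (adjusted p = 1.17e-05). Fos, Igfbp4, Rps18, Rpl29 and Rbp4 did not pass this contrast, with differences of 0.05, -0.08, -0.30, -0.14 and -0.85. Nor did Sostdc1, with 4.64 and an adjusted p of 0.517, since clusters 20 and 21 held few or no UMIs of it.

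The cells of cluster 19 fell into 3 subgroups when split by their own expression. Subgroup 1, led by Fos, Socs3, Klf2 and Egr1, held 154 of 387, 167 of 499 and 9 of 54 cells (39.8, 33.5 and 16.7%). Subgroup 2, led by Plaur, Tm4sf1, Mat2a and Fosl1, held 227, 332 and 43 cells. Since Fos and Mat2a also differed by genotype, these sizes are not compared between groups. Within subgroup 2 alone, Rgs5 was at 5.92, 4.79 and 0.554 UMIs per 10,000, Id3 at 65.7, 64.7 and 34.8 and Dcn at 4.27, 5.01 and 26.1. Bdnf was there at 9.24, 8.19 and 4.50. The order of the libraries was thus the one found over the whole cluster for each of these genes. In subgroup 1 Rgs5 was at 6.87, 8.81 and 0.148, while Dcn, at 4.53, 6.00 and 4.84, lay between the controls in the 9 Angpt1ΔNC cells. Nog was there at 6.99, 6.59 and 6.66 and at 10.1, 9.27 and 5.31 in subgroup 2. Fos was at 118, 114 and 83.5 in subgroup 1 and at 6.97, 6.30 and 4.74 in subgroup 2. Subgroup 3, which stays unnamed, had 8 cells. Control replicate 1 gave 6 of them, Angpt1ΔNC gave 2, and control replicate 2 gave 0 of its 499, which allows a share of up to 0.601% by the limit of 3 counts and up to 0.737% by the exact 95% interval. All 8 had UMIs of Ckm and of Grem1, a BMP antagonist, and 5 had Pax6. Their Actg2 level was 16.3 in control replicate 1 and 18.4 in Angpt1ΔNC, above that of the other subgroups.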

How the data were processed

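The authors pooled, dissociated and sequenced eyes of 6-week-old mice. Per the labels, the submitters' processing notes name Cell Ranger 2.1.1, Seurat 3.1.3 and the build mm10. The deposited matrices hold raw UMI counts of 31053 genes per called barcode. The authors kept cells of at least 200 genes and 1000 UMIs and at most 10% mitochondrial UMIs, removed doublets, integrated the libraries and clustered the cells. Only the cluster label was used from their tables of kept cells, and the integrated values beside it were not.

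The members and the gene lists were chosen with earlier results of these data known. A level is the mean, over cells, of a gene's UMIs per 10,000 UMIs of the cell, and shares have exact Clopper-Pearson 95% intervals, which cover counting error only. Cells were split into subgroups with scanpy 1.11.5 (1000 variable genes, 15 components, resolution 0.3). UMI counts were summed per library and tested with edgeR 4.0.16 (TMM, filterByExpr, glmQLFTest, calls below a Benjamini-Hochberg adjusted p of 0.05), with DESeq2 1.42.0 and other settings as alternatives. The SE is the log2 difference divided by the root of its F statistic. The test was run on simulated counts drawn with the same dispersion for every library. Such counts cannot show whether the single Angpt1ΔNC library varies as the controls do. Nothing says how the pooled mice were split between control libraries, so their spread may be partly technical. Named genes are the markers, the 25 leading genes, the 12 with the largest ratio either way against neighboring clusters, the 12 of smallest adjusted p per direction with a log2 difference of at least 1 and Angpt1ΔNC outside both controls, and called members of the lists. Some of the genes these rules select, and list counts that rest on them, are not reported here. A barcode string was found in cluster 19 of both controls for 1 cell, and 13 to 25 strings were shared by pairs of libraries. Gene positions come from GENCODE M21.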

Additional observations from a re-analysis of the deposited data

Results flagged for a closer look

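For 16 genes named or called in cluster 19, the genotype difference there differed from that in clusters 20 and 21 by the edgeR contrast. Of all genes tested, 95 of 9288 (1.02%) passed it. The genes were picked for their difference in the same cluster 19 sums that the contrast uses. That choice favors passing, so their number is a description only. The log2 contrast was lower in cluster 19 for 9 of them: Rgs5 (-3.99), Eif2s3y (-3.49), Ddx3y (-2.55), Rgs4 (-2.10), Ier3 (-1.54), Cebpd (-1.13), Junb (-1.09), Id3 (-0.98) and Bdnf (-0.95). It was higher for 7: Myoc (5.48), Dcn (2.97), Ptgds (2.94), Apoe (2.36), Cxcl10 (1.99), Fn1 (1.60) and Mat2a (0.78). Adjusted p ranged from 8.46e-10 for Rgs5 to 0.0328 for Fn1. The 2 Y-linked genes stand beside the typing of cells, by which 3.77% of typed cells in Angpt1ΔNC cluster 19 were male.

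In data outside the comparisons, 3.16% of the Angpt1ΔNC barcodes outside the stated quality limits (43 of 1360, exact 95% interval 2.30 to 4.24) held UMIs of Cnn1, Myh11 and Actg2. In the controls these were 27 of 1247 (2.17%, 1.43 to 3.13) and 3 of 1276 (0.235%, 0.0485 to 0.686), so control replicate 1 lay near the Angpt1ΔNC library.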

How the results depend on the processing

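No paired analysis was possible because Angpt1ΔNC is a single library and the labels pair none. The Angpt1ΔNC share of cluster 19 over the control mean stayed below 1 under every alternative. It was 0.0230 in male-typed cells, 0.338 with barcodes positive for Cnn1, Myh11 and Actg2 among all called barcodes, and 0.151 with Nog also required in kept cells, all chosen after seeing the data. Leaving out a control gave 0.162 to 0.187. Of the differences of 38 named genes, leaving out either control reversed none. Leaving out control replicate 1 moved 8 and control replicate 2 moved 11 by more than the spread between controls. These values were plain log2 CPM differences with a small added count, set against the edgeR fit. The 2 counts thus include a change of estimate and cannot show dependence on a control. The 100 called genes (51 higher, 49 lower) became 384 (180 and 204) with no filter on low counts, 198 (100 and 98) with equal numbers of cells, 202 (44 and 158) in male-typed cells, where Angpt1ΔNC has 2 cells, and 58 (11 and 47) without cells holding UMIs of other cell types, where it has 4. They became 320 (180 and 140) without subgroup 3 and 372 (193 and 179) without the cells highest in stroma genes, both chosen after seeing the data. In all of these fits edgeR's prior degrees of freedom were larger, from 48.2 without subgroup 3 to infinite, against 10.3 in the main fit. DESeq2 called 74 (31 and 43), 66 of them shared. The contrast with clusters 20 and 21 called 146 genes without the filter, against 95.

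Some differences reversed. Without cells holding UMIs of other cell types they were -1.52 for Apoe, -6.39 for Cxcl10, -1.02 for AC160336.1, -0.54 for Mat2a, -6.80 for Ptgds and -2.63 for Actg2. That setting leaves 4 Angpt1ΔNC cells with 16716 UMIs in all, so genes of low level are near the floor in it. In male-typed cells they were -0.48 for Rps18, -2.55 for Ddx3x, -1.06 for Ptgds, 0.43 for Gm13305, -12.06 for Actg2 and -9.71 for Eln. Angpt1ΔNC has 2 such cells with 14153 UMIs, and the median over the genes of the main test was -6.57 there. Ddx3y, at 0.39, is among the genes used to type cells as male, so this value came with the choice of cells. Without the cells highest in stroma genes Cxcl10 was -0.65. The cause was not tested.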
